A study of Mus musculus with 2 samples.

Results

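The genes described here encode the initiation and elongation factors of translation and the aminoacyl-tRNA synthetases. They were chosen by symbol among the protein-coding genes of the GENCODE vM21 annotation of GRCm38: Eif or Eef followed by a number, 1 letter followed by ars, ars1 or ars2, and Farsa, Farsb and Eprs. The rule found 105 of 21951 protein-coding genes, of which 55 encode initiation factors and their regulators, 13 encode elongation factors and their modifying enzymes, 20 encode cytosolic synthetases and 17 encode mitochondrial synthetases. A synthetase was counted as mitochondrial when its symbol ended in 2, and Gars and Kars, whose products charge tRNAs in both compartments, were counted as cytosolic. For each gene, the peaks of SRCAP whose midpoint lay from 1000 bp upstream to 500 bp downstream of a transcription start site (TSS), counting every transcript, were taken as promoter peaks.

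Translation begins when eIF2 brings the initiator tRNA to the small ribosomal subunit, which the eIF4 factors recruit to the mRNA cap and eIF3 holds in place. The elongation factors eEF1 and eEF2 then deliver charged tRNAs and move the ribosome along, and the synthetases load each tRNA with its amino acid. Mammals use separate nuclear genes for most cytosolic and mitochondrial synthetases. Cells short of amino acids or with unfolded proteins phosphorylate eIF2 through a small family of kinases, which lowers general translation but raises that of the transcription factor ATF4, and ATF4 with its C/EBP partners activates many cytosolic synthetase genes through the C/EBP-ATF composite element.

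SRCAP is the ATPase of the complex that places the histone variant H2A.Z in nucleosomes, and CUT&RUN was used to map it on the genome: an antibody-tethered nuclease cuts out the DNA beside the bound protein. There was 1 library with an antibody against GFP, which recognizes the YPet tag on SRCAP, and 1 with an antibody against SRCAP itself. Both came from SYAT cells, a CGR8 mouse embryonic stem cell line in which both SRCAP alleles carry YPet and an auxin-inducible degron, OsTir1 is expressed, and auxinole is present in routine culture. Cells were in serum and LIF medium before experiments and the labels do not say how each library was treated. For the GFP library, only the labels give CUT&RUN as the assay, and the methods of the study use that antibody in CUT&Tag.

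The 28718 peaks of the GFP list and 28167 peaks of the SRCAP list carry a score whose meaning was not stated (median 47 in each list). Without read counts in the files, the depth of the libraries is unknown. Each antibody had 1 library without replicates, so no test between antibodies or gene classes was possible. Shares are given with exact binomial intervals at the 95% level, which cover counting error only, since genes of 1 library are not replicates.

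Promoter peaks were more frequent at the translation genes than at protein-coding genes in general. In the GFP list 70 of the 105 genes had one (66.7%, 56.8 to 75.6), beside 35.0% of all protein-coding genes. In the SRCAP list the count was 58 (55.2%, 45.2 to 65.0), beside 35.6% of all protein-coding genes. A peak in both lists was found at 51 genes (48.6%, 38.7 to 58.5), beside 27.0% of all protein-coding genes. Another 19 genes had a GFP peak only (18.1%, 11.3 to 26.8, beside 7.98% of all protein-coding genes), 7 had a SRCAP peak only (6.67%, 2.72 to 13.3, beside 8.63%) and 28 had neither (26.7%, beside 56.4%). The share with a SRCAP peak only was thus near that of all genes. Of the 51 genes with peaks in both lists, 48 had promoter peaks that overlapped (94.1%), close to the 94.8% of all protein-coding genes with peaks in both lists, and the exceptions were Gars, Eef2k and Ears2.

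**Figure D1:**
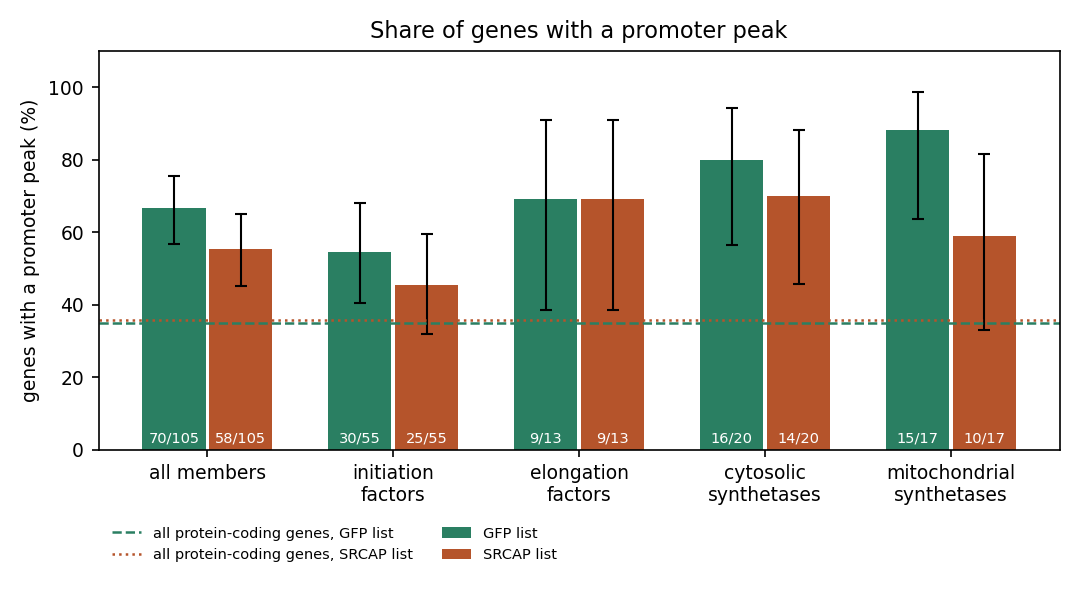
Share of genes with a promoter peak (percent) in the GFP list and the SRCAP list, for all 105 genes and for the 4 classes. Bars carry exact 95% binomial intervals and their gene counts, and the dashed and dotted lines give the shares of all protein-coding genes (35.0% and 35.6%). All 4 classes lie above the lines in both lists, but the lines do not account for the promoter type described below. The intervals of the classes overlap, and the order of the classes changes with the TSS set, the window and the score.

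Most translation genes are of the promoter type that carries many peaks in these lists. A 5' end was called CpG-rich when the observed over expected CpG ratio in the 500 bp on each side was at least 0.6, and this held for 89 of the 105 genes (84.8%), compared with 45.9% of all protein-coding genes. Among genes with a CpG-rich 5' end, 66.3% of the translation genes had a GFP peak (55.5 to 76.0) beside 52.3% of all such genes, and 56.2% had a SRCAP peak (45.3 to 66.7) beside 53.2%. Thus only the GFP share exceeded that background by more than the counting error. Of the initiation genes, 89.1% had a CpG-rich 5' end. Over all initiation genes the GFP share was 54.5%, near the 52.3%, and the SRCAP share was 45.5%, below the 53.2%. The 16 translation genes without a CpG-rich 5' end had a GFP peak in 11 cases and a SRCAP peak in 8 (68.8% and 50.0%), compared with 20.3% and 20.7% of all such genes. The CpG ratio was taken at the 5' end of the gene record, while peaks were counted at every start site. The 16 include Aars, Eef1a1, Eif4g1 and Eif6, where the peaks lay nearest to another start site. They also include Sars and Eef1akmt2, where this held for the SRCAP peak. The ratio thus does not describe the sequence at every peak. The translation genes also have more annotated start sites, with a median of 5 per gene against 3. Of the 61 with 5 or more TSSs, 46 had a GFP peak and 40 a SRCAP peak (75.4%, 62.7 to 85.5, and 65.6%, 52.3 to 77.3), beside 53.6% and 53.9% of all genes with 5 or more TSSs. Here the GFP interval lay above the background and the SRCAP interval included it. A divergent coding neighbor within 1000 bp was present at 24 translation genes (22.9%, against 11.2% of all). The share with a GFP peak was 66.7% both at these 24 and at the other 81, whereas over all protein-coding genes it was 63.1% with and 31.5% without such a neighbor.

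Among the initiation factor genes, the highest scores in both lists belonged to an eIF2 kinase gene. Eif2ak3 encodes PERK, the eIF2 kinase of the endoplasmic reticulum, and its GFP peak at chr6:70843958-70844556 scored 362, the highest GFP score of all 105 genes. Its SRCAP peak at chr6:70843997-70844508 scored 234, and the midpoints lay 258 and 262 bp upstream of the TSS. These scores were at or above those of 99.4% (GFP) and 98.0% (SRCAP) of the promoter peaks of coding genes. Eif2ak4, which encodes the amino acid sensor GCN2, had scores of 111 (GFP) and 198 (SRCAP). Eif2ak1, the heme-regulated kinase, had scores of 34 and 60. Eif2ak2, the kinase PKR that responds to double-stranded RNA, had only a GFP peak of score 24, near the minimum of 13 in each list. Thus 3 of the 4 kinase genes had peaks in both lists, beside 27.0% of all protein-coding genes.

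The shared part of the 2 Eif2ak3 peaks is shown over 160 bases around its center, outside annotated exons, because this was the shared promoter peak of highest SRCAP score among initiation factor genes. The sequence is that of GRCm38, read 5' to 3' on the strand of the gene, and capitals mark matches to the consensus sequences searched.
Eif2ak3, chr6:70844172-70844331, plus strand: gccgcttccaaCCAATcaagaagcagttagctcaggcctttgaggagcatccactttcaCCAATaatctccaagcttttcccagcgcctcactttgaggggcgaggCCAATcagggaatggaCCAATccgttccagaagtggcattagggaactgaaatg
All 4 matches were CCAAT boxes, the consensus of NFY. A match is a description of the letters and not of a bound site.

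The other initiation factor genes were divided between the lists. Of the 4 genes of eIF2, the carrier of the initiator tRNA, Eif2s1 had scores of 71 and 104 in the GFP and SRCAP lists and Eif2s2 had scores of 65 and 54. Its gamma subunit is encoded by an X-linked and a Y-linked copy, of which Eif2s3y had a GFP peak only (score 49) and Eif2s3x had none. The Eif2s3y peak, at chrY:1022654-1022831, lay within the gene, 363 bp upstream of an internal TSS. The 5' end of that gene is at position 1010543. The X-linked and Y-linked copies are alike and can share sequence. The study describes keeping only reads that map to 1 place for its ChIP-seq, and whether this was done for these libraries was not stated. Of the 5 genes of eIF2B, the exchange factor that reloads eIF2 with GTP, Eif2b2, Eif2b3 and Eif2b5 had peaks in both lists, Eif2b4 had a GFP peak only and Eif2b1 had none. The Eif2b4 peak lay nearer to the TSS of its divergent neighbor Snx17.

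The 14 genes of the scaffold eIF3 had a GFP peak in 8 cases and a SRCAP peak in 6, with both in 4. Eif3a, Eif3d, Eif3k and Eif3m had peaks in both lists. Eif3b, Eif3f, Eif3j1 and Eif3l had a GFP peak only, Eif3c and Eif3h had a SRCAP peak only, and Eif3e, Eif3g, Eif3i and Eif3j2 had neither. The lists thus differed at 6 of these 14 genes. Over all protein-coding genes 7.98% had a GFP peak only and 8.63% a SRCAP peak only, beside 27.0% with both. Whether eIF3 genes depart from these shares was not tested. Of the 4 genes with peaks in both lists, Eif3k had the highest score in each, 78 (GFP) and 120 (SRCAP), and its peaks lay nearer to the TSS of the divergent gene Map4k1.

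Of the 12 genes of the cap-binding, helicase and scaffold factors of eIF4, 5 had a GFP peak, 6 had a SRCAP peak and 4 had both. Over all protein-coding genes 35.0% had a GFP peak, 35.6% a SRCAP peak and 27.0% both. Among those with a CpG-rich 5' end, 52.3% had a GFP peak and 53.2% a SRCAP peak. Whether eIF4 genes depart from these shares was not tested. Eif4a1, the main cap-complex helicase, had the second highest GFP score among initiation factors, 119 at chr11:69672334-69672721, and a SRCAP score of 99, with midpoints 105 and 95 bp upstream. Eif4b, its cofactor, scored 59 and 120, and Eif4g2, which encodes a scaffold used in cap-independent initiation, scored 52 and 113. Eif4e1b, an egg-type cap-binding protein, had peaks of score 61 and 60, centered 633 and 733 bp upstream, and its 5' end was not CpG-rich (CpG ratio 0.17). Eif4e, the cap-binding protein itself, had a SRCAP peak only (score 29), as did Eif4g3 (29). Eif4g1 had a GFP peak only (56). Eif4a2, Eif4a3, Eif4e2, Eif4e3 and Eif4h had none in their promoter windows, although Eif4e2 had 3 peaks within the gene in each list.

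Among the genes whose symbols begin with Eif1, Eif5 or Eif6, Eif5a stood highest. Eif5a encodes the hypusine-modified factor that helps the ribosome past difficult peptide bonds. Its SRCAP peak at chr11:69921359-69921965 scored 223 and its GFP peak scored 104, but the midpoints lay 276 bp upstream and 55 bp downstream of their nearest TSSs. Eif5, the GTPase activator of eIF2, scored 25 and 37, and Eif5b, the GTPase of subunit joining, scored 35 and 83. The Eif5b peaks lay 838 and 839 bp upstream and nearer to the divergent gene Txndc9. Eif6, which keeps the large subunit apart, had a GFP peak only (38). Eif1, Eif1a, Eif1ad, Eif1ax, Eif1b and Eif5a2 had none. Among the remaining regulators, Eif2a, an alternative initiator tRNA factor, had peaks of score 28 and 52, Eif2d had a SRCAP peak only (114), and Eif4ebp1, an inhibitor of eIF4E, had a GFP peak only (43). Eif4ebp2, Eif4ebp3 and Eif4enif1 had none. In all, 20 of 55 initiation genes had peaks in both lists (36.4%, 23.8 to 50.4). The 27.0% of all protein-coding genes lies within this interval. Another 10 had a GFP peak only, 5 had a SRCAP peak only and 20 had neither. Over all protein-coding genes 7.98% had a GFP peak only and 8.63% a SRCAP peak only.

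**Figure D2:**
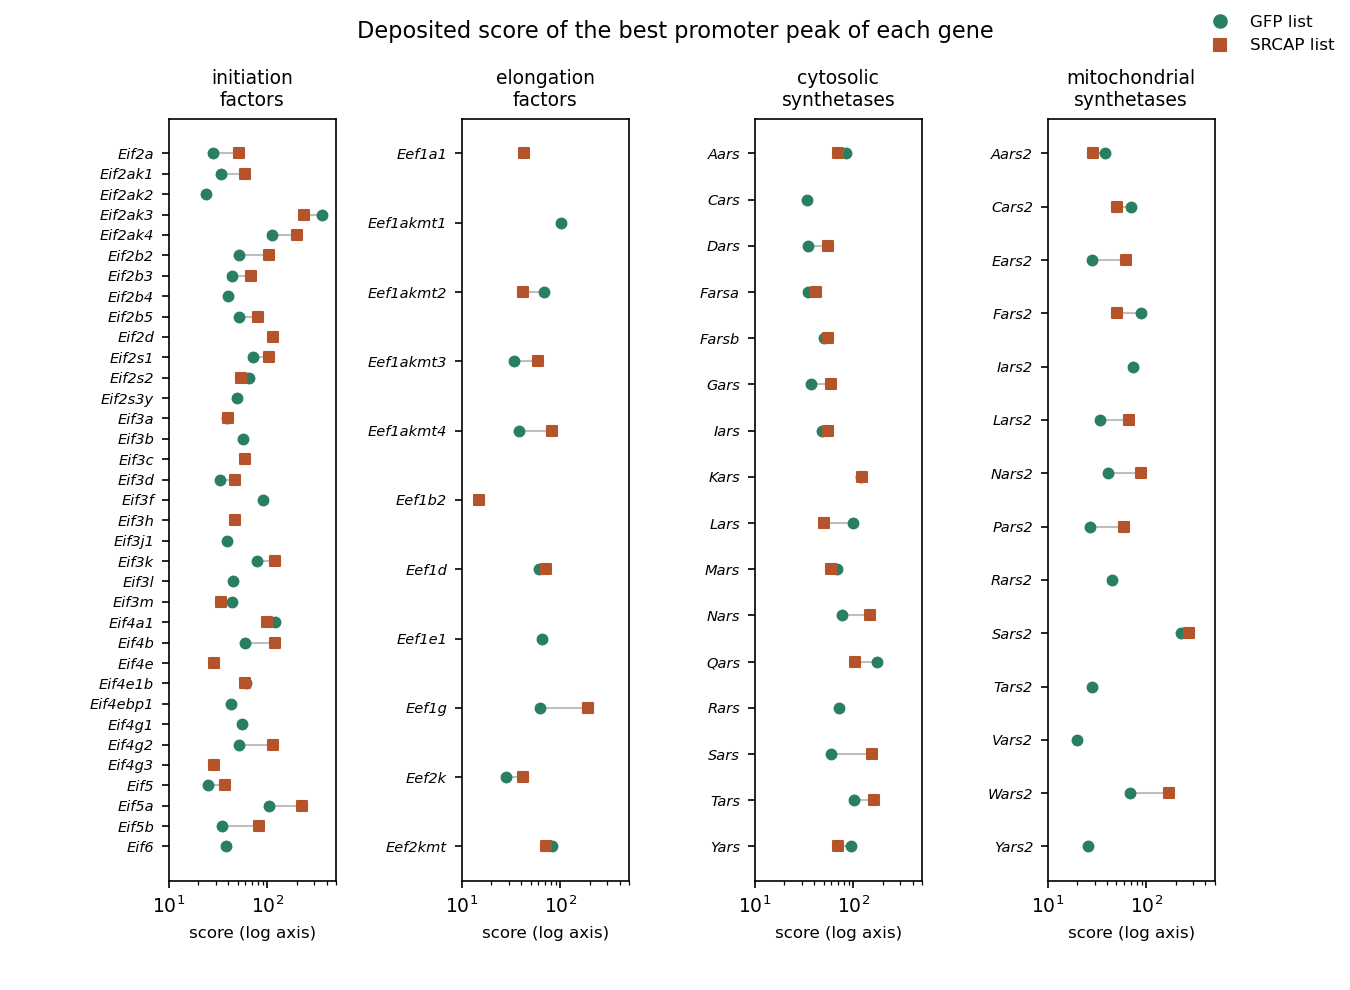
Deposited score of the best promoter peak of each gene in the GFP list (circles) and the SRCAP list (squares) on a log axis, with genes of each class in alphabetical order, 1 gene not shown, and a line joining values of 1 gene. Scores of the lists are shown side by side without a common scale. Within the GFP list Eif2ak3, Eef1akmt1, Qars and Sars2 stand highest in their classes, and within the SRCAP list Eif2ak3, Eef1g, Tars and Sars2.

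In the elongation machinery, the modifying enzymes carried peaks more often than the factors. All 6 modifier genes had a GFP peak, beside 35.0% of all protein-coding genes and 52.3% of those with a CpG-rich 5' end. Of the 6, 5 also had a SRCAP peak, beside 27.0% of all protein-coding genes with peaks in both lists. These 5 were Eef1akmt2, Eef1akmt3 and Eef1akmt4, which encode lysine methyltransferases of eEF1A, Eef2k, the kinase that inhibits eEF2, and Eef2kmt, a methyltransferase of eEF2. Eef1akmt1 had a GFP peak only, at chr14:57571649-57571926 with a score of 101, which was the highest GFP score of the class. The second was that of Eef2kmt at chr16:5255902-5256156 (83, with 71 in the SRCAP list). The highest SRCAP score after Eef1g was that of Eef1akmt4 at chr16:20611377-20611591 (82, with 38 in the GFP list). The peaks of Eef2k (28 and 42) lay at different TSSs and did not overlap. The peaks of Eef1akmt3 lay nearer to the divergent gene Mettl1.

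Of the 7 genes of the elongation factors themselves, only Eef1d and Eef1g had peaks in both lists, beside 27.0% of all protein-coding genes. Eef1d and Eef1g encode subunits of the exchange factor of eEF1A. Eef1d scored 61 (GFP) and 71 (SRCAP). Eef1g scored 62 and 193, and its SRCAP peak at chr19:8966787-8967164 was centered 65 bp upstream of the TSS. Eef1e1, which encodes a synthetase complex scaffold, had a GFP peak only (66). Eef1a1, which encodes the abundant tRNA carrier eEF1A, had a SRCAP peak only, of score 43 and 690 bp upstream, and Eef1b2 had a SRCAP peak only, of score 15 and nearer to its divergent neighbor Ndufs1. Eef1a2 had none, and neither had Eef2, the translocase gene, whose nearest midpoints were 1242 bp upstream in the GFP list and 1652 bp downstream in the SRCAP list. Neither Eef1a1 nor Eef2 had a midpoint within 500 bp of a TSS in either list. With 6 and 7 genes, the intervals of modifiers and factors overlapped in both lists (54.1 to 100 and 9.9 to 81.6 for GFP).

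The shared part of the Eef1g peaks is shown over 160 bases because it held the highest SRCAP score of the elongation class. The bases shown lie outside annotated exons and contained 1 CCAAT box in reverse and 1 match to GGGCGG, the Sp/KLF consensus. Another match to GGGCGG lay in the shared part, upstream of the bases shown.
Eef1g, chr19:8966881-8967040, plus strand: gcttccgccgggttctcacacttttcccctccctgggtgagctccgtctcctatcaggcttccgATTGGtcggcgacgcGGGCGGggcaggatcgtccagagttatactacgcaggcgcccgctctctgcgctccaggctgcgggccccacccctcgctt

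Most cytosolic synthetases had peaks in both lists. A GFP peak was found at 16 of 20 genes (80.0%, 56.3 to 94.3) and a SRCAP peak at 14 (70.0%, 45.7 to 88.1), and each of those 14 also had a GFP peak. Over all protein-coding genes the shares were 35.0% (GFP) and 35.6% (SRCAP). Aars, Dars, Farsa, Farsb, Gars, Iars, Kars, Lars, Mars, Nars, Qars, Sars, Tars and Yars had peaks in both lists, each named for the amino acid its product attaches. Cars and Rars had a GFP peak only (34 and 71). Eprs, Hars, Vars and Wars had none, and the nearest midpoint to an Eprs TSS was 30862 bp away. Qars had the highest GFP score of the class, 176 at chr9:108507551-108508223, centered 154 bp downstream of the nearest TSS, with 104 in the SRCAP list. Kars came second in the GFP list, with 120 at chr8:112011110-112011435 and 124 in the SRCAP list. Its peaks were centered 2 bp downstream and 4 bp upstream of a TSS and also fell in the promoter window of the divergent gene Terf2ip. In the SRCAP list the highest scores were 163 for Tars (103 in the GFP list) and 157 for Sars at chr3:108444809-108445522 (59 in the GFP list). The multisynthetase complex joins 8 of these enzymes, and 7 of their genes had a GFP peak and 6 a SRCAP peak, compared with 9 and 8 of the 12 others. Eprs, which encodes a core enzyme of that complex, was the member of the 8 without any promoter peak.

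The shared part of the Tars peaks is shown because it held the highest SRCAP score among cytosolic synthetases. None of the 10 consensus sequences occurred in these 160 bases. Nearer to the TSS, outside the bases shown, the shared part held CCAAT boxes, a match to GGGCGG and the C/EBP-ATF element described below.
Tars, chr15:11399765-11399924, minus strand: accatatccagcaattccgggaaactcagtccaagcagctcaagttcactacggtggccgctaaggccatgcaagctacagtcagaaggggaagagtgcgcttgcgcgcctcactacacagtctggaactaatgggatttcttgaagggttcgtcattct

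Most mitochondrial synthetases had a GFP peak, and fewer also had a SRCAP peak. A GFP peak was found at 15 of 17 genes (88.2%, 63.6 to 98.5) and a SRCAP peak at 10 (58.8%, 32.9 to 81.6), and each of those 10 also had a GFP peak. All protein-coding genes had shares of 35.0% (GFP) and 35.6% (SRCAP). Among those with peaks in both lists were Aars2, Cars2, Ears2, Fars2, Lars2, Nars2, Pars2, Sars2 and Wars2. Iars2, Rars2, Tars2, Vars2 and Yars2 had a GFP peak only, with scores of 73, 45, 28, 20 and 26. Their median of 28 was below the median of 54.5 for the 10 with both. Mars2 and Hars2 had none. Hars2 and its cytosolic counterpart Hars are divergent neighbors, and neither had a peak in the promoter window they share. Sars2 had the highest scores, 225 in the GFP list at chr7:28741698-28742236 and 275 in the SRCAP list at chr7:28741803-28742286. The SRCAP score was the highest of all 105 genes in that list. Wars2 scored 68 in the GFP list and 169 at chr3:99140976-99141777 in the SRCAP list.

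Sars2 lies head to head with Mrps12, a gene of the mitochondrial ribosome, and both its peaks fell in the promoter windows of both genes. The bases of the shared part outside annotated exons are shown because this was the strongest shared peak among mitochondrial synthetases.
Sars2, chr7:28741832-28741991, plus strand: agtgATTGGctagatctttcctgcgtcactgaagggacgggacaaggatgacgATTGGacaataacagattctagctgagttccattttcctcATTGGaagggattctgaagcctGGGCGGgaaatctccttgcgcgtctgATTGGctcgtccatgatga
The stretch held 4 CCAAT boxes, all in reverse on the strand of Sars2, and 1 match to the Sp/KLF consensus. The printed stretches of Eif2ak3 and Sars2 thus each held 4 CCAAT boxes. At Eif2ak3 the shared part of the peaks held further CCAAT boxes nearer to the TSS, outside the printed bases. Over all promoter peaks of the 105 genes, a CCAAT box within 100 bp of the midpoint was no more frequent than in general. The shares were 25.3% (GFP) and 31.1% (SRCAP), compared with 31.9% and 34.0% of promoter peaks of all coding genes.

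Cytosolic and mitochondrial synthetases could not be told apart by the share with a peak in either list at these gene numbers, since their intervals overlapped widely. The order in the GFP list also depended on the TSS set and the score. With TSSs of coding transcripts the shares were 80.0% (cytosolic) and 76.5% (mitochondrial), and with the 5' end of the gene alone they were 75.0% and 70.6%. When peaks below the median score were left out, 12 cytosolic and 6 mitochondrial synthetase genes had a GFP peak (60.0% and 35.3%) and 13 and 9 had a SRCAP peak (65.0% and 52.9%). The median score of the best GFP peak was 70 in cytosolic and 41 in mitochondrial synthetases, and that of the best SRCAP peak was 65 and 64.5. Over all 37 synthetase genes, 31 had a GFP peak and 24 had a SRCAP peak (83.8%, 68.0 to 93.8, and 64.9%, 47.5 to 79.8), and none had a SRCAP peak alone. For the 68 factor genes the counts were 39 and 34 (57.4%, 44.8 to 69.3, and 50.0%, 37.6 to 62.4), with 7 in the SRCAP list alone. Over all protein-coding genes 35.0% had a GFP peak, 35.6% a SRCAP peak and 8.63% a SRCAP peak alone. Among all genes with a CpG-rich 5' end the shares were 52.3% and 53.2%, both within the intervals of the factor genes.

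Peaks lay upstream of the TSS at the median in 7 of 8 combinations of class and list. In the GFP list the median midpoint was 216 bp upstream of the nearest TSS for initiation factors, 127 bp for elongation factors and 162.5 bp for cytosolic synthetases, whereas for mitochondrial synthetases it was 50 bp downstream. In the SRCAP list the medians were 131, 66, 82 and 22 bp upstream in the same order. For all gene and peak pairs of protein-coding genes the medians were 128 and 92 bp upstream. Of the 17 GFP peaks of mitochondrial synthetases, 9 were downstream of the TSS (52.9%), compared with 28.2% over all protein-coding genes, and 5 of 11 SRCAP peaks were (45.5%, compared with 28.0%). The position of a median depends on which TSS is taken and on the score. With the 5' end of the gene record alone, the mitochondrial medians became 25 bp upstream in the GFP list and 8.5 bp downstream in the SRCAP list, and 6 of 13 and 5 of 10 peaks were downstream. Without peaks below the median score, the GFP median was 20 bp upstream, and 3 of 7 peaks were downstream. At the 48 genes with overlapping peaks, the SRCAP midpoint lay a median of 9.5 bp downstream of the GFP midpoint, beside 13 bp over all protein-coding genes.

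**Figure D3:**
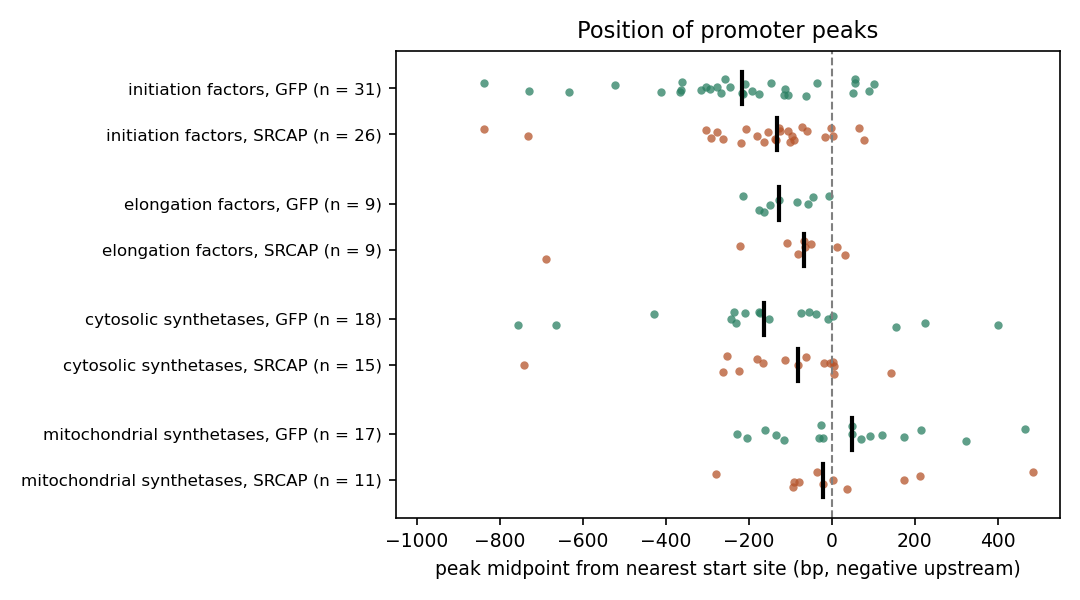
Midpoint of each promoter peak relative to the nearest TSS of its gene (bp, negative values upstream), by class and list, with n the number of peaks. Each point is 1 peak, the vertical spread of points within a row has no meaning, and black bars are medians. The medians lie upstream in all rows except mitochondrial synthetases in the GFP list (50 bp downstream).

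The C/EBP-ATF composite element, TGATGCAA or its reverse TTGCATCA, was concentrated at the cytosolic synthetases. From 250 bp upstream to 50 bp downstream of the 5' end of the gene, it was present at Cars, Iars and Tars, 3 of 20 cytosolic synthetases (15.0%), and at none of the other 85 genes. Over all protein-coding genes the share was 0.994%, and over those with a CpG-rich 5' end it was 0.337%. When the wider windows used for the peaks were searched at every TSS, a choice made after seeing the data, 11 of 20 cytosolic synthetases held it (55.0%), compared with 8.26% of all protein-coding genes. In the same windows it was present at 0 of 17 mitochondrial synthetases, 0 of 13 elongation genes and 7 of 55 initiation genes (12.7%). Genes with more TSSs have more sequence searched. Among genes with 5 or more TSSs the shares were 11 of 17 cytosolic synthetases, 0 of 11 mitochondrial synthetases and 12.7% of all.

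Elements of the cytosolic synthetases are shown with 11 bases on each side, since they set this class apart by sequence. Each is from GRCm38 and is read 5' to 3' on the strand that gives TGATGCAA, with the element in capitals. Those of Aars, Lars and Nars are not shown.
Cars, chr7:143600045-143600074, plus strand: cttccagaatcTGATGCAAccgcggcgccg
Eprs, chr1:185363259-185363288, minus strand: cacccacgcgcTGATGCAAcccgcgcgggt
Farsb, chr1:78488571-78488600, plus strand: acacgcgctgaTGATGCAAcggagccaccg
Iars, chr13:49682126-49682155, minus strand: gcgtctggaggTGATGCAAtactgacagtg
Mars, chr10:127311638-127311667, plus strand: ggagcccacgcTGATGCAAtcggaaccggc
Tars, chr15:11399655-11399684, plus strand: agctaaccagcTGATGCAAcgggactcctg
Wars, chr12:108893505-108893534, minus strand: aaagggacagcTGATGCAAtgcaatgacaa
Yars, chr4:129189895-129189924, plus strand: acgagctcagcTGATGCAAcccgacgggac
The element of Tars lay upstream of the gene, 4 bp from the TSS. Those of Cars, Iars and Mars lay in annotated UTR sequence of a transcript of the gene, that of Yars in a coding exon of 1 transcript, those of Farsb and Wars in introns and that of Eprs in an exon of a noncoding transcript. Measured at the center, 6 of the 11 elements lay within 50 bp of a TSS, and the whole range was from 321 bp upstream (Wars) to 380 bp downstream (Lars).

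The presence of the element and that of peaks did not coincide throughout. Of the 11 genes with the element, 8 had promoter peaks in both lists, Cars had a GFP peak only, and Eprs and Wars had none. Of the 9 cytosolic synthetases without it, 6 had peaks in both lists, 1 had a GFP peak only and 2 had none. At Aars, Tars and Yars the element was inside the peaks of both lists. At Cars it was inside the GFP peak, and at Nars it was inside the SRCAP peak only. At Iars the SRCAP peak ended 1 bp upstream of the TSS and the element was centered 10 bp downstream. At Farsb, Lars and Mars the element was outside the peaks. At Lars it belonged to another TSS, 47310 bp from the nearest GFP midpoint.

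**Figure D4:**
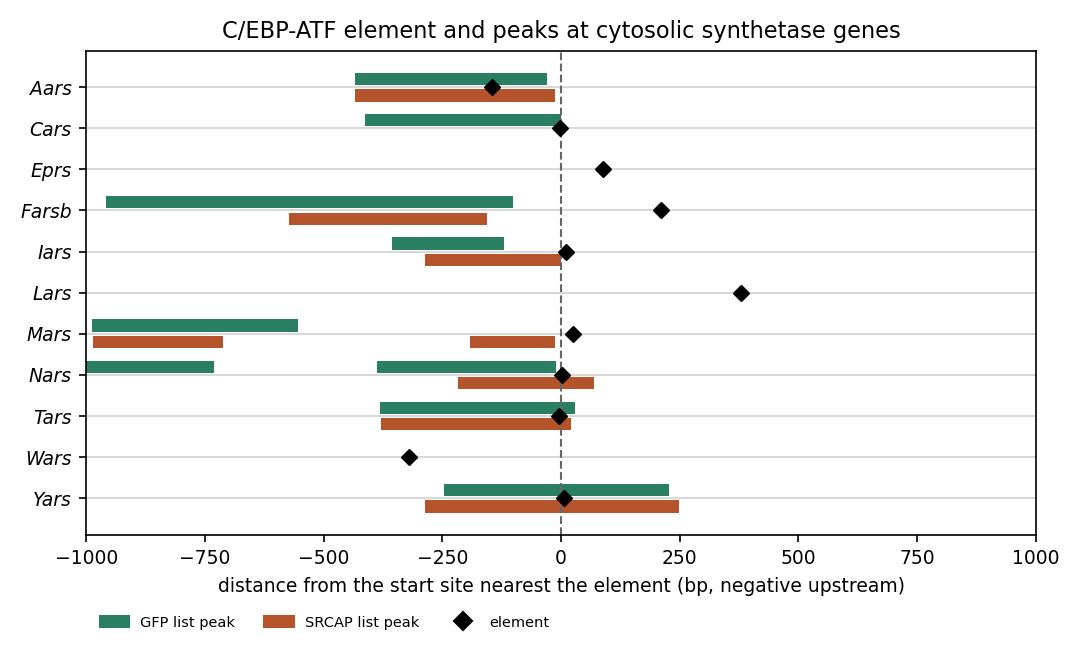
The C/EBP-ATF element (diamonds) and the extent of GFP and SRCAP peaks (bars) at the 11 cytosolic synthetase genes that hold it, in bp from the TSS nearest the element (negative values upstream). At Aars, Tars and Yars the element lies within the peaks of both lists, and at Eprs, Lars and Wars no peak lies within 1000 bp of this TSS.

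Of the initiation genes, Eif1, Eif1b, Eif2s2, Eif3c, Eif4g2, Eif4g3 and Eif5b held the element, and at none of them did a peak contain all of it. It was nearest to a TSS at Eif1, which held 2, and Eif2s2, and these are shown in the same way.
Eif1, chr11:100320500-100320529, minus strand: ccccacccggcTGATGCAAcctaccggaag
Eif1, chr11:100320665-100320694, plus strand: gacccctttgcTGATGCAAgtaagggtgat
Eif2s2, chr2:154892804-154892833, minus strand: ctccctttcgcTGATGCAAgagcctagtgc
The first Eif1 element and that of Eif2s2 were 4 and 10 bp upstream of a TSS. Eif1 had no promoter peak, and the Eif2s2 SRCAP peak covered 7 of the 8 bases of its element. The nearest midpoints to that element were 232 bp away in the GFP list and 133 bp away in the SRCAP list.

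The other consensus sequences were searched from 250 bp upstream to 50 bp downstream of the 5' end on both strands. The ETS consensus CCGGAAG was present at 12 of 20 cytosolic synthetases (60.0%), 5 of 17 mitochondrial synthetases (29.4%), 16 of 55 initiation genes (29.1%) and 2 of 13 elongation genes (15.4%), compared with 10.8% of all protein-coding genes and 18.5% of those with a CpG-rich 5' end. The core of the NRF1 consensus, GCATGCGC, was present at the mitochondrial synthetases Rars2, Vars2 and Wars2 (17.6%) and at none of the 20 cytosolic ones, compared with 6.15% of genes with a CpG-rich 5' end. NRF1 is a known activator of nuclear genes for mitochondrial proteins. The core of the YY1 consensus, GATGGCGG, occurred at Aars2 and Yars2 (11.8%) and at none of the cytosolic synthetases. The counts of 2 and 3 genes are too few to set these classes apart. The E-box CACGTG was found at 13 of 105 genes (12.4%, against 11.1% of CpG-rich genes) and the cyclic AMP response element TGACGTCA at Eef2 alone. The ETS consensus was about as frequent at the 58 translation genes with a SRCAP peak as at the 47 without (32.8% and 34.0%).

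**Figure D5:**
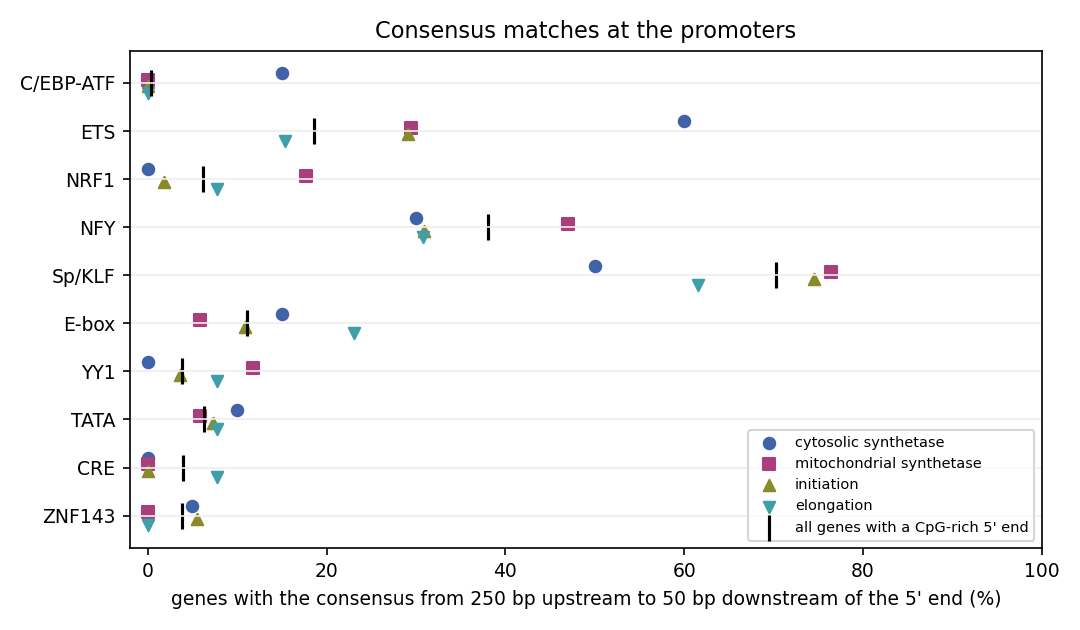
Share of genes with an exact match to each of 10 consensus sequences from 250 bp upstream to 50 bp downstream of the 5' end (percent), by class, with a black tick for all protein-coding genes with a CpG-rich 5' end. The ETS share of cytosolic synthetases (60.0%) lies farthest from its tick (18.5%).

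Genes of the same process that the symbol rule left out were counted from a list of 42. A GFP peak was found at 18 (42.9%) and a SRCAP peak at 20 (47.6%), beside 35.0% and 35.6% of all protein-coding genes. Among all genes with a CpG-rich 5' end the shares were higher, 52.3% and 53.2%. The groups that follow hold at most 9 genes each and were not tested against these shares. Of the 9 organelle factors, 6 had a GFP peak and 4 a SRCAP peak, led by Mtrf1l, a mitochondrial release factor gene, with scores of 428 and 193. Of the 6 termination and recycling genes, 3 and 4 had peaks, among them the release factor genes Etf1 (49 and 46) and Gspt1 (29 and 73). Of 9 genes of the stress response that eIF2 kinases start, 4 and 5 had peaks. Atf5 scored 110 and 195, Ddit3 scored 72 and 59, Ppp1r15a and Ppp1r15b, the phosphatase subunits that reverse eIF2 phosphorylation, scored 93 and 43 and 106 and 58, and Chac1 had a SRCAP peak only (37). Atf4, Asns, Atf3 and Trib3 had none. The scaffold gene Aimp2 of the multisynthetase complex scored 81 and 60, and Aimp1 had no peak. Of 7 genes of re-initiation and mRNA binding, 2 and 1 had peaks, and Pabpc1 and Larp1 had none. Of 9 relatives in tRNA charging, Gatb and Pstk had peaks in both lists and Gatc, Sepsecs and Tarsl2 in the SRCAP list only.

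Peaks at divergent promoters cannot be assigned to 1 gene. At 17 of the 77 translation genes with a promoter peak, a peak was also in the promoter window of another coding gene, and at 7 all promoter peaks lay nearer to the other gene. Chromosome 8, where 49.2% of coding genes had a GFP peak, held 5 of the translation genes, Aars, Cars2, Eif4ebp1, Farsa and Kars, of which 5 had a GFP peak and 4 a SRCAP peak. Without it the counts were 65 and 54 of 100 genes. Whether the higher share on that chromosome touches the peaks of these 5 genes was not tested.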

How the data were processed

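Per the labels, SRCAP was mapped by CUT&RUN in SYAT cells in 2 libraries, 1 per antibody (GFP or SRCAP), grouped as their titles state. The methods name the GFP antibody for CUT&Tag only. For each library the authors deposited a list of peaks with coordinates and a score. Per the labels, STAR, Picard and MACS2 were used with the builds mm10 and dm6. The study lists versions of STAR, Picard and MACS, and for ChIP-seq it describes unique mapping and calling against an input. Whether CUT&RUN was treated alike, and what the score means, was not stated, so the score was ranked only within a list. All peak ends lay within GRCm38. The lists hold no counts, so the depth of each sample is unknown.

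Peaks were placed at their midpoints and assigned to GENCODE vM21 genes with 141767 transcripts in Python 3.11.15 (pandas 2.3.3, numpy 2.4.6, pysam 0.24.0). Percentages carry exact Clopper-Pearson intervals (scipy 1.17.1). Consensus sequences were matched exactly on both strands of GRCm38, and 1 of the Ddit3 records was counted. The steps were tested on simulated data. Members and lists were chosen with earlier results of these data known. Genes were named by class and list, with positions for the 2 highest scores of each list in each of 4 classes and for elements. Some items within this rule are not reported here. Alternatives varied the score, window, TSS set and overlap. With 1 library per antibody no significance test was made. Plots were drawn with matplotlib 3.10.9.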

Additional observations from a re-analysis of the deposited data

How the results depend on the processing

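No replicate could be left out, and no paired analysis was possible because there were no replicate libraries. Depth is unknown, and a gene without a listed peak may carry SRCAP below the threshold of the caller. Keeping only peaks at or above the median score changed the counts most, although the cause was not tested. Under it the translation genes with a GFP peak fell to 40 and those with peaks in both lists to 31, the elongation genes with a SRCAP peak to 5, the initiation genes with a GFP peak to 16 and the mitochondrial synthetases with a GFP peak to 6. All protein-coding genes fell to 4865 (GFP), 5159 (SRCAP) and 3507 (both). At this score 38.1% and 44.8% of the 105 genes had a GFP or SRCAP peak, against 22.2% and 23.5% of all protein-coding genes. The other 8 values at this score, both medians included, and the 72 under a window of 2500 bp on each side, any overlap with the window, coding transcripts, the 5' end of the gene alone, stricter overlap or removal of chromosome 8 (chosen after seeing the data), stayed within 1.5 times the value given. Around peak midpoints instead of the 5' end, 17 of 20 motif counts moved by more than that, and the C/EBP-ATF count was 2 (GFP) and 3 (SRCAP), against 3. In the wider windows of every TSS, also searched after seeing the data, 11 cytosolic synthetases held that element, against 3.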
